A study of Homo sapiens with 32 samples.

Results

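Binding of HNF4α, a nuclear receptor that marks differentiated epithelia of the gut, liver and pancreas, was examined at the loci of 7 epithelial transcription factors. The 7 genes were the Krüppel-like factors KLF4 and KLF5, the ETS factors ELF3 and EHF, the grainyhead-like factor GRHL2, and the OVO-like zinc fingers OVOL1 and OVOL2. A peak was assigned to a gene when its summit, the position of highest signal given in the peak list, was no further than 50 kb from the GRCh38 span of that gene. By this rule 329 of the 337294 peaks in 18 lists were taken, and merging peaks that overlapped by at least 1 bp gave 65 sites of 78729 regions in all. The genes were 7 of 20037 protein-coding genes.

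The lists came from chromatin immunoprecipitation sequencing (ChIP-seq) in cell lines of pancreatic ductal adenocarcinoma, 3 in all, with 2 libraries in each of 9 groups. Panc10.05 and BxPC3 cells expressed either P1-α2, an isoform made from the P1 promoter of HNF4A, or P2-α8, an isoform made from its P2 promoter, each induced by doxycycline. BxPC3 cells were dosed at 500 ng/mL throughout. In Panc10.05 the P1-α2 dose was 25 ng/mL and the P2-α8 dose 12.5 ng/mL, which means that isoform and dose cannot be told apart there. AsPC1 cells were not given doxycycline in the labels and carried CRISPR interference guides, which repress transcription, named sgP1, sgP2 or sgNC, the last taken here as the non-targeting control. All 14 lists of these 7 groups used an antibody against HNF4α of either promoter (pan-HNF4α), and 4 further lists used an antibody specific to P1 isoforms in AsPC1 sgP2 and sgNC cells. No list of uninduced Panc10.05 or BxPC3 cells was analysed here.

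Lists held 11686 to 41808 peaks with the pan-HNF4α antibody, 3916 and 5200 with the P1 antibody in sgP2 cells, and 260 and 697 with it in sgNC cells. Every Panc10.05 and BxPC3 list began at a −log10 q of 8 and every AsPC1 list at 2, and the library names put each line in a series of its own. Line, library series, threshold and the source of HNF4α (induced or endogenous) therefore cannot be told apart, and the sequencing depth behind the lists is unknown. A site that is not in a list had no peak past that list's threshold, which does not show that HNF4α was absent from it. The strength of a site is given as its percentile by the authors' fold enrichment within its own list, where 100 is the strongest peak.

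As background, these factors are regulators of epithelial identity. GRHL2 activates genes of cell junctions such as the E-cadherin gene, OVOL1 and OVOL2 repress the mesenchymal regulators of the ZEB family, ELF3 and EHF are ETS factors largely restricted to epithelia, and KLF4 and KLF5 bind GC-rich elements and regulate differentiation and proliferation of epithelial cells. HNF4α binds as a dimer to direct repeats of its half-site, and much of its binding lies away from promoters.

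Promoter sequences are shown for the 3 genes whose promoter window was overlapped by a peak in at least 1 list, to show what lay under those peaks. They are RefSeq windows from 250 bases before to 50 bases after the first listed start (GRCh38.p14), and 4 of the 7 genes matched an entry. The windows were searched on both strands for CAAAGNNCA (HNF4), AACCNGTT (GRHL), CCGGAAG (ETS) and CCCCNCCC (KLF), which 5.28%, 1.73%, 10.3% and 37.7% of 35116 such windows hold. Capitals mark the KLF letters on either strand, adjoining matches running together. None of the HNF4, GRHL or ETS letters occurred in these 3 windows, which says only that these letters are not in this stretch.
ELF3, chr1:202010337-202010636, plus strand: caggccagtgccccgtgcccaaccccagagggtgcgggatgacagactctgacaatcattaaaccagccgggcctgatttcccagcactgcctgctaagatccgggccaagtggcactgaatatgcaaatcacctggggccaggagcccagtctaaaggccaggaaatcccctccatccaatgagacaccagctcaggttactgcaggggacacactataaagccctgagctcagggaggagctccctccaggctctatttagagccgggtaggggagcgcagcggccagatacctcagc
KLF4, chr9:107489720-107490019, minus strand: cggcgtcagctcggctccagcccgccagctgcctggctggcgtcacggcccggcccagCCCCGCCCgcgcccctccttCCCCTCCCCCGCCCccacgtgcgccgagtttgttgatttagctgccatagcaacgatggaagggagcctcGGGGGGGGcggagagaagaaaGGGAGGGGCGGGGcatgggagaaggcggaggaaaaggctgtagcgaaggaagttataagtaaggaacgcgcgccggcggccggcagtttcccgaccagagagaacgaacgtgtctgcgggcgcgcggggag
EHF, chr11:34624007-34624306, plus strand: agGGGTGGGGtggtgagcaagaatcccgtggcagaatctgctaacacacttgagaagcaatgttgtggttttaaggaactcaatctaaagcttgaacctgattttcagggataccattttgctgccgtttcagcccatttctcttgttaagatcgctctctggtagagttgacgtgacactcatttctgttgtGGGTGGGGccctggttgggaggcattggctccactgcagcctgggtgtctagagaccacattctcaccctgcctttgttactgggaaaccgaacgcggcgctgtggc
The ELF3 window overlapped a pan-HNF4α peak in 11 lists, with the summit inside it in 5, and held no KLF match. The EHF window overlapped a peak in 11 lists, 10 of them pan-HNF4α, with no summit inside, and held 2 KLF matches. The KLF4 window overlapped a peak in 4 lists and held 6 KLF matches. Both listed KLF5 windows and the second EHF window overlapped no peak.

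The 65 sites were spread unevenly. GRHL2, the longest gene at 189 kb, had 13 sites, EHF 12, OVOL2 11, ELF3 and OVOL1 10 each, KLF4 6 and KLF5 3. Sites were assigned by distance alone, and some lay nearer to another gene. These genes were RNPEP at ELF3, NCALD at GRHL2, and MGME1 and KAT14 at OVOL2. Most OVOL1 sites lay nearer to RNASEH2C, AP5B1, LOC124902693 or SNX32. Of all sites, 21 had their summit inside the span of the gene and 15 were found in a single list. In all 14 pan-HNF4α lists 3 sites were present, 2 at EHF and 1 at OVOL2. Sites were found in all 3 lines in 14 cases, in Panc10.05 alone in 13, in BxPC3 alone in 14 and in AsPC1 alone in 9.

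**Figure D1:**
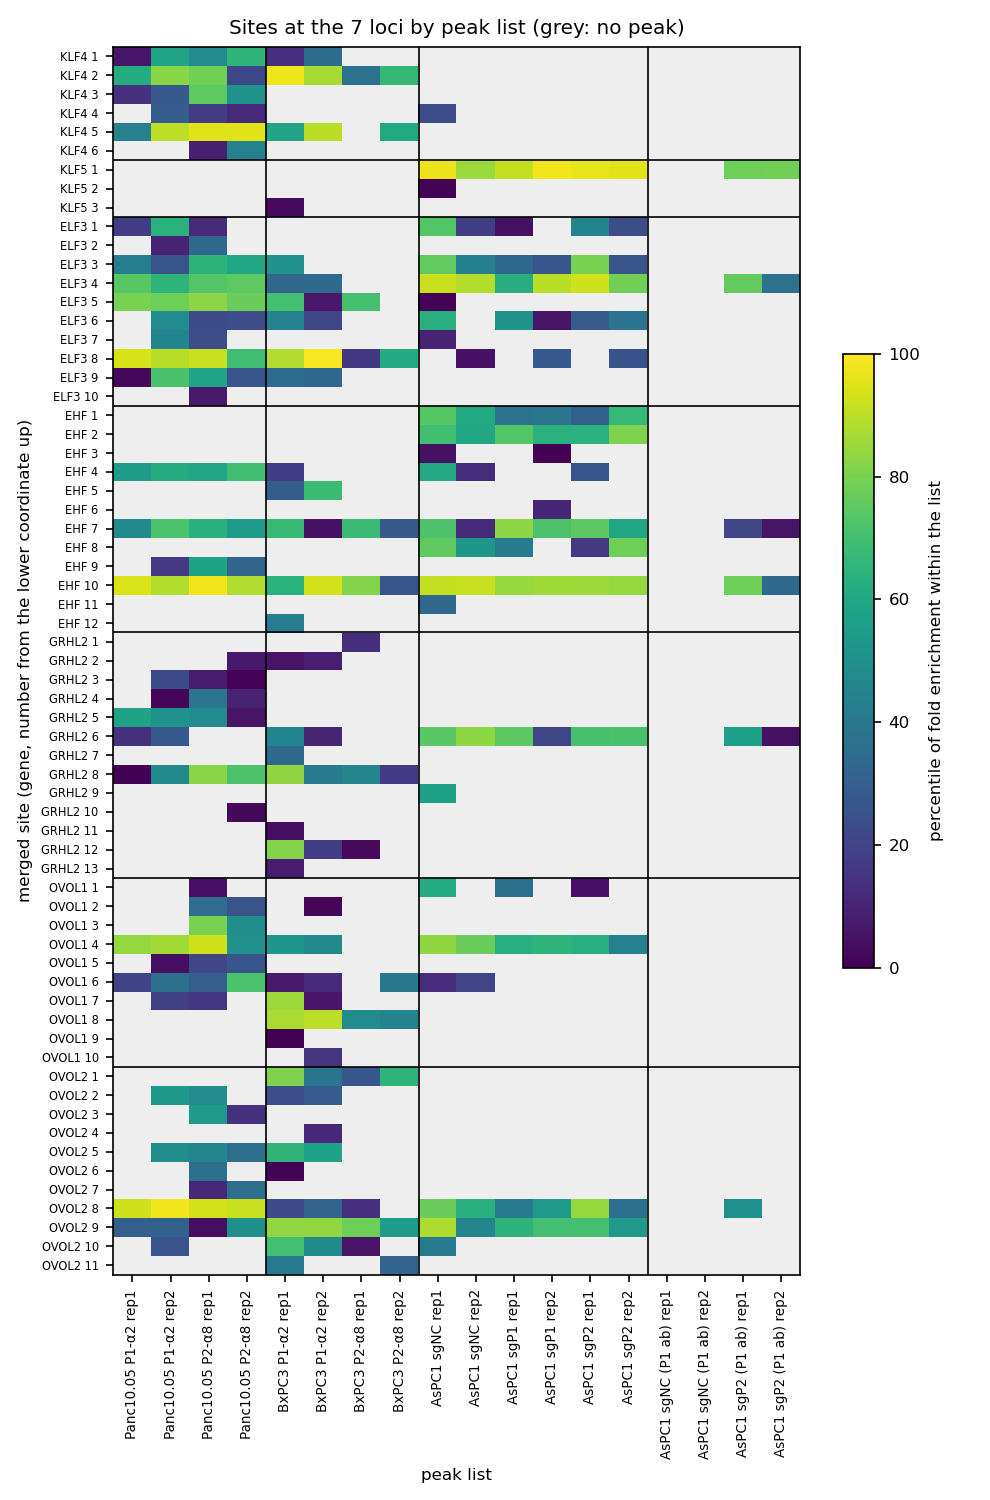
Percentile of fold enrichment of each of the 65 sites (rows, numbered within a gene from the lower coordinate up) in each of the 18 peak lists (columns), with grey where the list had no peak. The first KLF5 site is bright in the 6 AsPC1 pan-HNF4α lists and grey in the 8 lists of Panc10.05 and BxPC3. The second KLF4 site has the opposite layout, with a peak in all 8 of those lists and none in AsPC1.

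At KLF5, the site with the highest mean percentile in AsPC1 of all 65 (93.8) lay at chr13:73044779-73045828, 9.77 kb upstream of the first listed start. The percentile of this site was 97.0 and 84.9 in the sgNC lists, 90.9 and 98.0 in the sgP1 lists and 96.4 and 95.4 in the sgP2 lists, with a fold enrichment of 13.6 to 31.9. The site was also in both P1-antibody lists of sgP2 cells, at percentiles 78.1 and 78.6, and in none of the 8 Panc10.05 and BxPC3 lists. Thus all 6 AsPC1 lists held it regardless of the guide. The other KLF5 sites were single weak peaks, one in an sgNC list at percentile 0.891 and one in a BxPC3 P1-α2 list at 2.83.

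KLF4 showed the reverse layout by line. The Panc10.05 lists held 4 and 5 KLF4 peaks with P1-α2 and 6 and 6 with P2-α8, the BxPC3 lists 3 and 3 with P1-α2 and 1 and 2 with P2-α8, and the AsPC1 pan-HNF4α lists 1 peak in 1 sgNC list and 0 in the other 5. Panc10.05 lists were thus all above BxPC3 lists, while the lowest BxPC3 list and the highest AsPC1 list met at 1. The site in all 8 induced lists, chr9:107462331-107463403, lay 21.9 kb beyond the 3′ end of the gene, with percentiles from 21.8 in a Panc10.05 P2-α8 list to 97.5 in a BxPC3 P1-α2 list. A site 18.3 kb upstream of the start, chr9:107507402-107508500, was in 7 of these 8 lists and reached percentile 95.5. The only AsPC1 peak was the promoter site, at percentile 23.8, which 3 Panc10.05 lists shared. A site inside the gene, chr9:107487551-107488489, was in all 4 Panc10.05 lists and in no other.

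**Figure D2:**
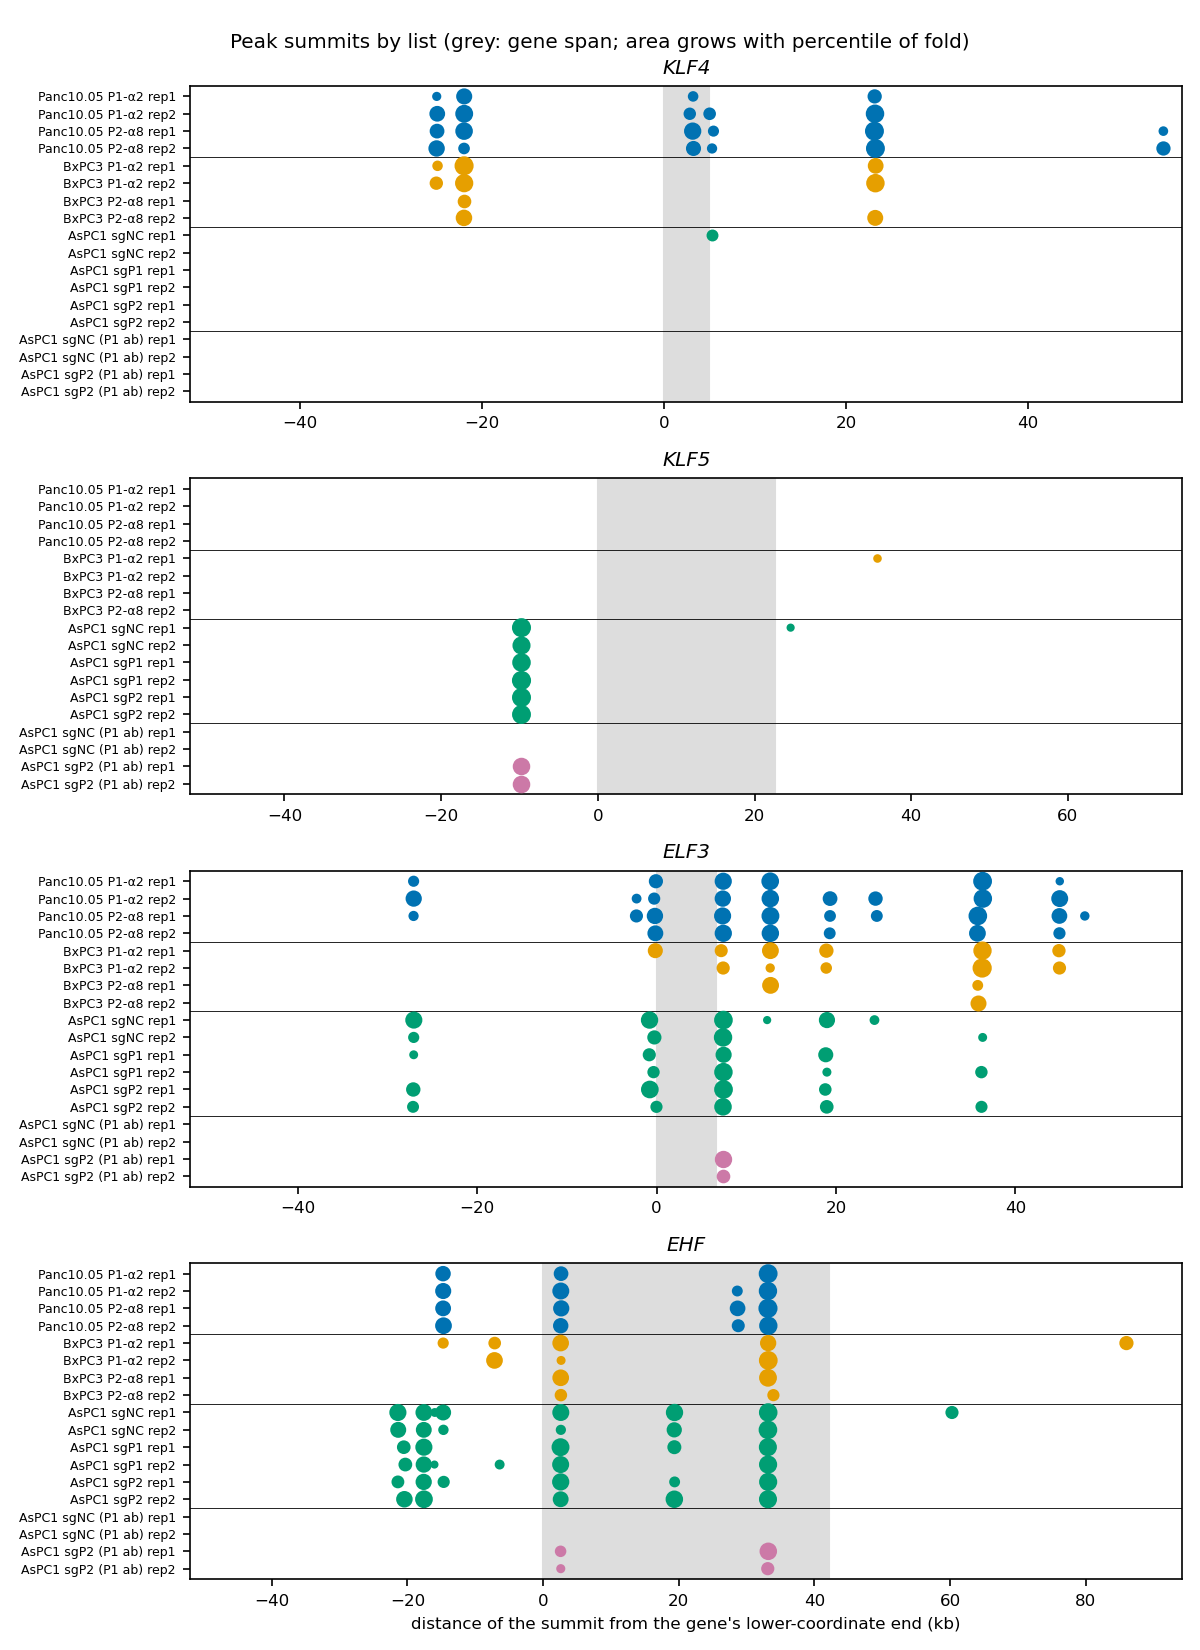
Summits of the peaks at KLF4, KLF5, ELF3 and EHF in each list (rows, coloured by line and antibody), by distance in kb from the lower-coordinate end of the gene, whose span is grey; the point area grows with the percentile. KLF5 has a single column of AsPC1 points 9.77 kb before the gene, and EHF has AsPC1 points before the gene where Panc10.05 and BxPC3 have none.

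Of the ETS factor genes, ELF3 had 5 of its 10 sites in all 3 lines and EHF had 3 of 12. At EHF, a site inside the gene, chr11:34653794-34655325, was in all 14 pan-HNF4α lists with a mean percentile of 82.6, from 26.0 in a BxPC3 P2-α8 list to 97.8 in a Panc10.05 P2-α8 list. The promoter-side site, chr11:34623162-34624434, was also in all 14, with percentiles from 5.02 to 82.9. Both were in both P1-antibody lists of sgP2 cells. Before the gene, 2 further sites, chr11:34599410-34601345 and chr11:34603164-34603938, were in AsPC1 lists alone. They lay 21.0 kb and 17.6 kb below the lower end of the gene, and all 6 AsPC1 pan-HNF4α lists held them, at percentiles of 31.1 to 73.7 and 59.5 to 80.6. Another 2 sites before EHF were in AsPC1 alone but in no more than 2 lists each. A further EHF site inside the gene, chr11:34639602-34640629, was in 5 of the 6 AsPC1 lists and in no other. EHF peaks numbered 8 and 7 in the sgNC lists, 7 and 6 with sgP1 and 7 and 6 with sgP2, and 2 to 5 in the 8 induced lists. Some AsPC1 peaks were parts of the same merged site. The site at chr11:34599410-34601345 held 2 peaks in sgNC replicate 2, in sgP1 replicate 1 and in both sgP2 lists. That at chr11:34639602-34640629 held 2 in sgP1 replicate 1. Among the induced lists, BxPC3 P2-α8 replicate 2 held 2 peaks at chr11:34653794-34655325. Counted as merged sites, the lowest AsPC1 lists and the highest induced list were equal, so the lines were apart in peaks only.

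ELF3 had 1 to 10 peaks per pan-HNF4α list. Its most shared site, chr1:202017424-202019267, lay 0.836 kb beyond the 3′ end and was in 12 of 14 lists, all but those of BxPC3 P2-α8, with a mean percentile of 71.6. The promoter site, chr1:202009583-202011323, was in 11 lists at a mean percentile of 48.2. A site 29.6 kb beyond the 3′ end, chr1:202045822-202047365, was in all 8 induced lists, with percentiles up to 99.2 in a BxPC3 P1-α2 list, and in 3 of 6 AsPC1 lists, where the highest percentile was 27.7. ELF3 counts were 6 and 9 with P1-α2 and 10 and 6 with P2-α8 in Panc10.05, 6 and 5 against 2 and 1 in BxPC3, and 4 to 6 in the AsPC1 lists, which lay within the range of the induced lists.

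At GRHL2 most sites were weak and held by few lists, with 6 of 13 in a single list. The site in most lists, chr8:101573204-101573923 inside the gene, was in all 6 AsPC1 pan-HNF4α lists at percentiles of 21.1 to 83.0, in both P1-α2 lists of Panc10.05 and of BxPC3 at 10.2 to 45.2, and in no P2-α8 list. A second site inside the gene, chr8:101603526-101604427, was in all 8 induced lists at percentiles of 0.560 to 83.5 and in no AsPC1 list. GRHL2 had 3, 5, 4 and 6 peaks in the Panc10.05 lists, 7, 4, 3 and 1 in the BxPC3 lists, and 2 peaks in 1 AsPC1 list and 1 in the other 5.

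Of the OVO-like genes, OVOL1 had 2 of its 10 sites in all 3 lines and OVOL2 had 3 of 11. At OVOL2, chr20:18076446-18077596, 17.6 kb above the upper end of the gene, was in all 14 pan-HNF4α lists with a mean percentile of 57.8, and was strongest at 87.7 in an sgNC list. The site at the upper end of the gene, chr20:18058794-18059688, was in 13 of 14, with percentiles of 91.5 to 98.0 in the 4 Panc10.05 lists and 13.7 to 32.8 in the 3 BxPC3 lists that had it. At OVOL1, chr11:65788124-65788974 inside the gene was in 12 of 14 lists with a mean percentile of 67.4, again missing only from the BxPC3 P2-α8 lists. The lists of Panc10.05 held 2 to 7 OVOL1 peaks, those of BxPC3 1 to 6 and those of AsPC1 1 to 3, and for OVOL2 the ranges were 2 to 7, 3 to 8 and 2 to 3.

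Peak number was compared between AsPC1 and the induced lines for each gene, to ask which of these loci differed between these sets of lists. EHF had a mean of 6.83 ± 0.753 peaks (SD, n = 6) in AsPC1 and 3.5 ± 0.926 (n = 8) in the induced lines, a difference of 3.33 with an adjusted p of 0.0129. KLF5 had 1.17 ± 0.408 against 0.125 ± 0.354, a difference of 1.04 with an adjusted p of 0.0248. By the same exact permutation test, KLF4 had 0.167 ± 0.408 against 3.75 ± 1.83 (adjusted p = 0.0231) and GRHL2 1.17 ± 0.408 against 4.13 ± 1.89 (adjusted p = 0.0323), both lower in AsPC1. These are two-sided exact permutation tests over 3003 labellings with Benjamini-Hochberg adjustment over 18836 protein-coding genes, in which the smallest p was 0.000333. In these exact tests OVOL2 (2.17 against 5.13, adjusted p = 0.0507), OVOL1 (1.83 against 4.00, adjusted p = 0.150) and ELF3 (4.50 against 5.63, adjusted p = 0.626) did not pass. Of all genes tested, 2.4% had more peaks in AsPC1 and 14.3% had more in the induced lines by the same rule, beside 2 of 7 and 2 of 7 of these genes. The 6 AsPC1 lists span 3 guides, and the 8 induced lists 2 lines and 2 isoforms, so the spread within each side is partly that of its groups. AsPC1 is a single line, so these p-values measure the spread between libraries and cannot measure that between lines. The KLF4 call was lost without any 1 of 5 AsPC1 lists (adjusted p of 0.0516 to 0.0527 in the exact test) and the GRHL2 call without any 1 of the 6 (0.0565 to 0.0801), while the EHF and KLF5 calls held without any 1 of the 14. Without an AsPC1 list the smallest possible p of the exact test rose to 0.000777. The genes passing in all then numbered 1466 to 2139, against 3140 with every list, so calls were lost widely and not at these loci alone.

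The line differences did not depend on list length alike. With every list cut to its 11686 strongest peaks by fold, EHF (4.38, adjusted p = 0.00385 by the same exact permutation test) and KLF5 (1.00, adjusted p = 0.00385) remained higher in AsPC1 and KLF4 remained lower (−1.75, adjusted p = 0.0106), while the GRHL2 difference turned to 0.292 (adjusted p = 0.832). Within 10 kb of the genes, KLF5 passed the exact permutation test (1.17, adjusted p = 0.0121) and EHF did not (0.417, adjusted p = 0.481), nor did KLF4 (−0.708, adjusted p = 0.401) or GRHL2 (−2.33, adjusted p = 0.0710). When only peaks whose −log10 q reached 20 were counted, the same exact test gave −0.0417 for EHF (adjusted p = 1) and 1.00 for KLF5 (adjusted p = 0.00855). KLF5 was the only 1 of the 7 genes whose call held in all 3 of these settings. Its site lay 9.77 kb from the gene, just inside the 10 kb window. The EHF sites held by every AsPC1 list and no induced list lay 17.6 kb and 21.0 kb away, outside it. Higher in AsPC1 were 3159 of 17089 genes at equal length, 436 of 16137 within 10 kb and 97 of 18252 at a −log10 q of 20. The share of genes passing in all 3 settings was not counted.

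**Figure D3:**
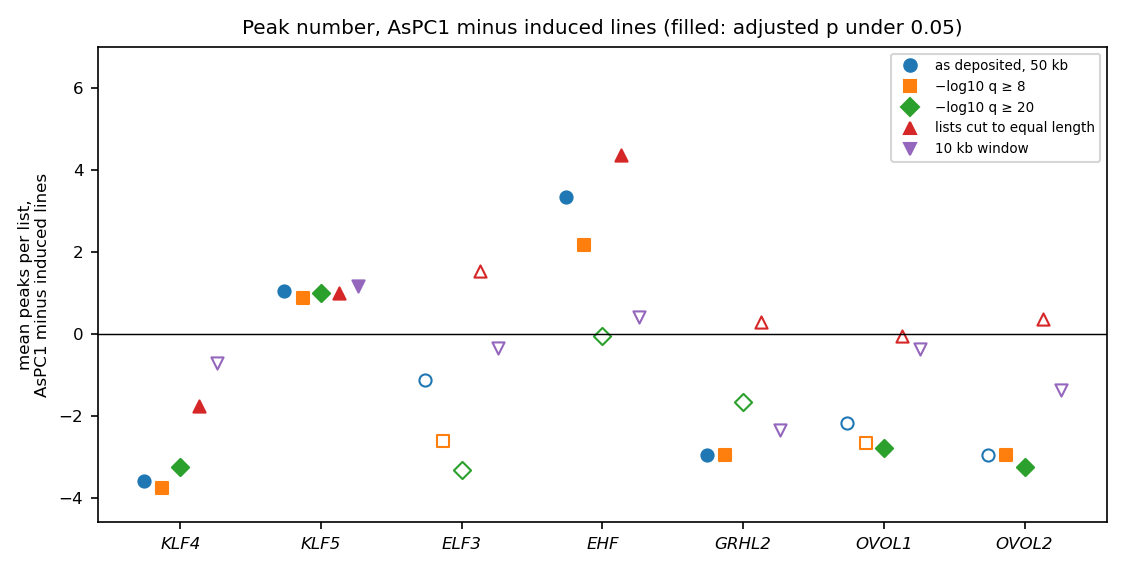
Mean number of peaks per list in AsPC1 minus that in the induced lines for each gene, as deposited and under 4 other settings; filled symbols had an adjusted p under 0.05. KLF5 is filled and above 0 in all 5, while ELF3, GRHL2 and OVOL2 cross 0 when lists are cut to equal length.

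At the level of sites, 3 were in every AsPC1 pan-HNF4α list and in no induced list (the KLF5 site and the 2 EHF sites above), which is 4.62% of 65 sites beside 1.19% of all regions. The reverse was true of 2 sites (KLF4 and GRHL2 above), 3.08% beside 2.45% of all regions. With the lists at equal length these counts were 5 and 0, and with a minimum −log10 q of 20 they were 1 and 2. The share of all regions was not computed under these 2 settings, so the changes cannot be set against it.

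**Figure D4:**
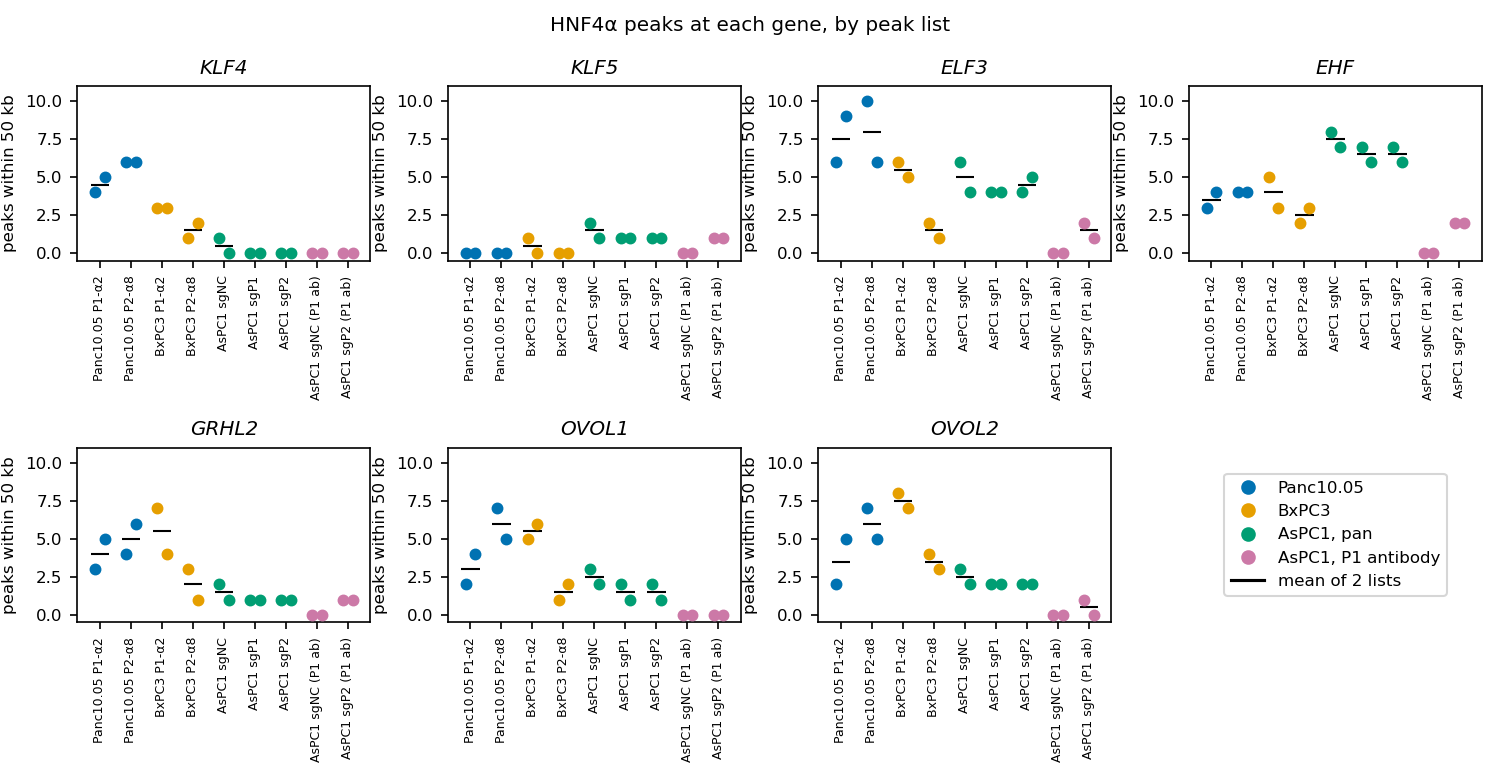
Number of peaks within 50 kb of each gene in each of the 18 lists (points; horizontal bar, mean of the 2 lists of a group). The AsPC1 pan-HNF4α lists lie above all others at EHF, with 6 to 8 peaks, and at or near 0 at KLF4.

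The isoforms were compared within each induced line. In Panc10.05, 42 of the sites were in any of the 4 lists and 18 in every one (42.9% beside 38.1% of all regions). Both P2-α8 lists and no P1-α2 list held 5 sites, 11.9% beside 10.9% of all regions, and the reverse was true of 1, 2.38% beside 3.63%. The strongest of the 5 by mean percentile were chr11:65786482-65787625, 0.215 kb from the lower end of OVOL1 (79.7 and 49.0), and chr20:18021025-18021517, 2.99 kb below OVOL2 (54.0 and 14.5). The single P1-α2 site was the GRHL2 site in most lists. KLF4 and OVOL1 had more peaks in both P2-α8 lists than in either P1-α2 list, as did 27.1% of genes, and the lists of the other genes overlapped or were equal. The 5 P2-α8 sites became 12 without P1-α2 replicate 2 and 8 without P2-α8 replicate 2, and the 1 P1-α2 site became 2 without P1-α2 replicate 1 or P2-α8 replicate 1. A list left out loosens the rule, so such counts can only stay or rise. With all 4 lists at equal length there were 2 and 2, and the KLF4 lists no longer stood apart (4 and 5 peaks with P1-α2, 4 and 4 with P2-α8), nor did those of OVOL1 (2 and 2, 2 and 4).

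In BxPC3 the order of the isoforms was the other way. Both P1-α2 lists and no P2-α8 list held 11 of 39 sites, 28.2% beside 28.3% of all regions, and no site was in both P2-α8 lists alone, beside 0.13% of regions. The 2 strongest were chr20:18052772-18053668 inside OVOL2 (65.5 and 57.6) and chr11:65788124-65788974 inside OVOL1 (52.5 and 48.0). KLF4, ELF3, GRHL2, OVOL1 and OVOL2 had more peaks in both P1-α2 lists than in either P2-α8 list, as did 67.4% of genes. The P1-α2 lists were longer (33737 and 41808 peaks against 12681 and 14666), and per 10000 peaks the 7 loci had 8.37 and 8.30 peaks with P1-α2 and 10.3 and 8.18 with P2-α8, which overlap. With all 4 lists cut to 12681 peaks the P1-α2 sites numbered 0 and the difference in mean peaks turned from 19.0 to −3.5. KLF4 then had 1 and 2 peaks with either isoform, and OVOL1 2 and 1 with P1-α2 and 1 and 2 with P2-α8. The 11 sites became 20 without P1-α2 replicate 2, under the looser rule of fewer lists. KLF4 and OVOL1 were the members with the P2-α8 lists higher in Panc10.05 and the P1-α2 lists higher in BxPC3, a pattern of 19.2% of genes, which neither gene showed with lists of equal length. With 2 lists against 2, the smallest possible p is 0.333, and no gene of either comparison could pass.

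Between the induced lines, 2 sites were in all 4 Panc10.05 lists and no BxPC3 list, 3.57% of 56 beside 5.54% of all regions. They were the site inside KLF4 given above and chr8:101515641-101516252 inside GRHL2. They numbered 7 without Panc10.05 P1-α2 replicate 1 and 4 without BxPC3 P1-α2 replicate 1, again under the looser rule of fewer lists. Another 2 were in all 4 BxPC3 lists alone, 3.57% beside 2.09%. They were chr11:65821087-65822063, 24.1 kb above OVOL1 and within LOC124902693, at percentiles of 45.2 to 90.1, and chr20:17985589-17986068, 38.3 kb below OVOL2 and within MGME1, at 26.8 to 80.6. KLF4 was the only 1 of the 7 genes with more peaks in every Panc10.05 list than in any BxPC3 list (5.25 ± 0.957 against 2.25 ± 0.957, SD, n = 4 each), as were 13.9% of genes. Its exact permutation p of 0.0286 is the smallest this design allows and was 0.185 after adjustment over 18569 genes, of which 2867 had an unadjusted p under 0.05 and 0 an adjusted one.

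**Figure D5:**
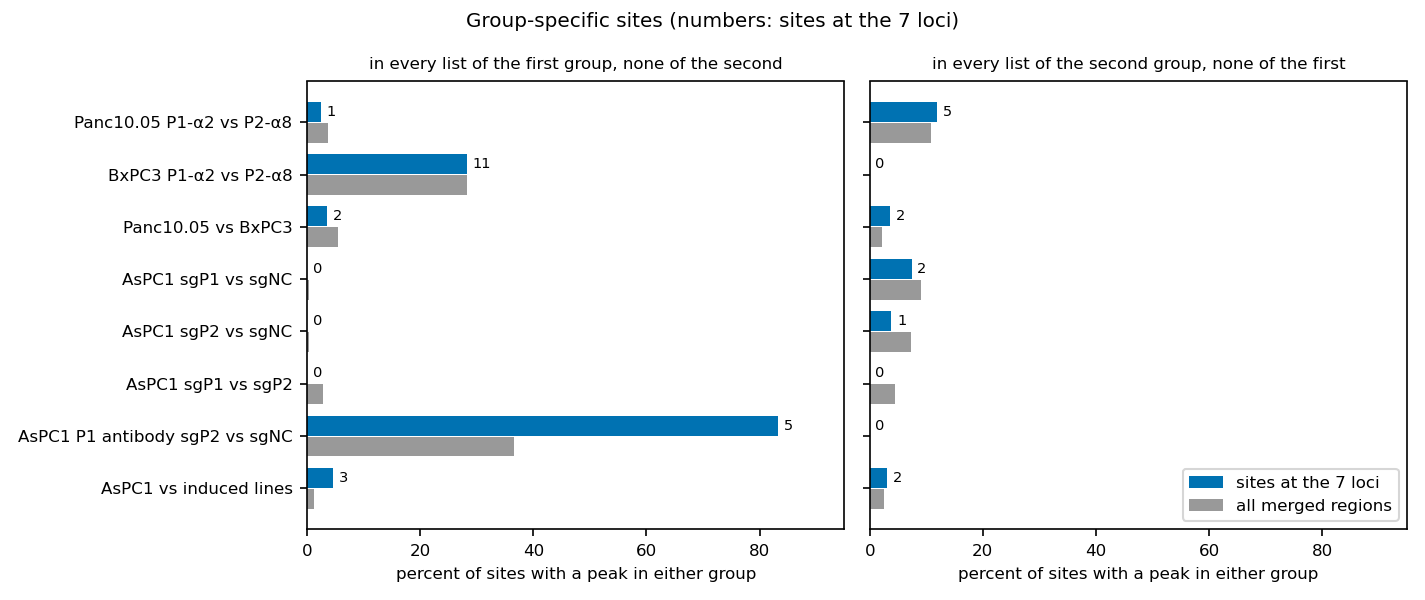
Sites found in every list of one group and in no list of the other, as a percent of sites with a peak in either group, for the 7 loci (blue, with the number of sites) and for all merged regions (grey), in each of 8 comparisons. The blue and grey bars of the BxPC3 isoform comparison are nearly equal, at 28.2% and 28.3%.

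In AsPC1, member sites were compared between the control guide and the guides against each promoter. Of 27 sites in any sgP1 or sgNC list, 11 were in all 4 (40.7% beside 32.4% of all regions), and 2 were in both sgNC lists and no sgP1 list, 7.41% beside 9.06% of all regions. These were chr11:34606088-34606644, 14.7 kb below EHF (percentiles 60.4 and 13.2 in sgNC), and chr11:65817419-65818554, 20.5 kb above OVOL1 and within LOC124902693 (12.6 and 21.1). The latter was also the only 1 of 26 sites in both sgNC lists and no sgP2 list, 3.85% beside 7.27%. Leaving out a list loosens the rule, so these counts could then only stay or rise. Without sgNC replicate 2 they were 9 for each guide, and without replicate 1 of the guide's own lists 4 for sgP1 and 2 for sgP2. With lists of equal length they were 0 for both. The share of all regions was not computed for these alternatives. No member site was in both lists of a guide and in neither sgNC list, beside 0.408% of regions for sgP1 and 0.414% for sgP2. Between sgP1 and sgP2, 12 of 19 sites were in all 4 lists (63.2% beside 38.7% of all regions) and none was specific to either guide, beside 2.76% and 4.39% of regions. The sgP1 and sgP2 comparisons share the sgNC lists. Member peaks numbered 25 and 17 with sgNC, 17 and 15 with sgP1 and 17 and 16 with sgP2, so the lower sgNC list and the higher list of each guide met at 17. KLF4 aside, which had no peak with either guide, the 6 other genes had at least 1 peak in every AsPC1 pan-HNF4α list.

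The P1 antibody gave 7 and 5 member peaks in sgP2 cells and 0 and 0 in sgNC cells, whose lists held only 697 and 260 peaks in all. All 12 of the sgP2 peaks overlapped a pan-HNF4α peak of sgP2 cells (100%, exact Clopper-Pearson 95% interval 73.5% to 100%), and 6 of 12 did so with a reciprocal overlap of 50%. The 12 peaks lay in 6 sites, 5 of them in both lists, so the peaks are not independent and the interval is too narrow. Over all P1-antibody peaks, 88.4% and 96.1% in these 2 lists shared a merged region with such a peak, so the share at the 7 loci is near that of the whole lists. Of 6 sites, 5 were in both sgP2 lists and no sgNC list, 83.3% beside 36.5% of all regions, and none was in the reverse, beside 0.0655%. They were the KLF5 site, the ELF3 site beyond the 3′ end, the 2 EHF sites of all 14 pan-HNF4α lists, and the GRHL2 site in most lists. The sixth was the site at the upper end of OVOL2, in 1 list at percentile 50.2. KLF5, ELF3, EHF and GRHL2 had more peaks in both sgP2 lists than in the sgNC lists, as did 54.8% of genes, and KLF4 and OVOL1 had none. Cut to 260 peaks each, the lists held no member peak, so the difference cannot be told apart from list length. Of 14 member sites in both sgP2 pan-HNF4α lists, 5 were in both P1-antibody lists (35.7% beside 28.0% of such regions) and 8 in neither (57.1% beside 50.4%). Among the 8 were the 2 sites before EHF that all AsPC1 lists held, whose mean percentile in the sgP2 pan-HNF4α lists was 49.0 and 72.2, and OVOL2 at 62.4, while the 5 had means of 67.1 to 95.9.

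Other factors of these families and epithelial genes were counted in the same way. Of 17 such genes, the number with a peak in both lists of a group ranged from 5 in BxPC3 P2-α8 to 17 in Panc10.05 P2-α8 with the pan-HNF4α antibody, and 6 of the 7 members had one in each of these 7 groups. Among all coding genes this share was 45.4% to 79.6% by group. The gene missing was KLF5 in the 4 induced groups and KLF4 in AsPC1. KLF6, a further Krüppel-like factor, had more peaks in AsPC1 (7.83 against 3.5, adjusted p = 0.0200, exact permutation). ELF5, an ETS factor of glandular epithelia, had fewer by the exact test (0.167 against 2.25, adjusted p = 0.0160), as had SPINT1, an inhibitor of membrane serine proteases (1.67 against 6.63, adjusted p = 0.0499). The other 14 did not pass, among them GRHL1, GRHL3, ELF1, KLF3, ESRP1 and ST14. Of the 17, 1 was thus called higher and 2 lower in AsPC1, beside 2.4% and 14.3% of all genes tested. The calls of these 17 were not repeated under other settings. KLF6 was also the only 1 of the 17 with a peak in both P1-antibody lists of sgP2 cells, as were 23.7% of coding genes.

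The genes whose peak numbers followed each member most closely over the 18 lists, outside 1 Mb of it, were ATF7 for KLF4 (Spearman rho 0.998, tied with the readthrough gene ATF7-NPFF), FNDC10 for KLF5 (0.982), DDIT4 for ELF3 (0.983), HOXA2 for EHF (0.954), CCDC33 for GRHL2 (0.977), PEMT for OVOL1 (0.976) and RAB5IF for OVOL2 (0.980, tied with SLA2). The 18 points share lines, groups and list length, and these are the highest of all genes, so the values are a description. At the limit of 50 kb, the outermost peaks taken lay 48.5 kb from OVOL2 and 48.3 kb from GRHL2, with one of KLF4 just inside the limit, and the nearest left out lay 50.5 kb from EHF and 51.6 kb from OVOL1, the EHF one in a region of 4 lists. For KLF5 the nearest left out was 61.3 kb away.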

How the data were processed

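The deposited files are narrowPeak lists, 1 per immunoprecipitated library, so peaks were called per sample. Per the submitters' processing notes, the tools were Bowtie2 2.2.9, a read aligner, and MACS2 2.2.7, a peak caller, and the builds hg38 and mm10, with no role stated for either; the control used for calling is not given in the sources used here. The deposited lists hold the authors' fold enrichment, a linear ratio. They also hold the authors' p-value and q-value as −log10, and a score that follows the authors' −log10 q. These values were used only to rank or filter peaks within a list. Summits lay within 1 kb of a listed start in 5.60% to 19.1% of cases, and in 1.15% to 3.93% after a shift of 100 kb, so GRCh38 gene spans and names (RefSeq, GRCh38.p14) were used with these coordinates.

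Groups came from the line, genotype and antibody labels and replicate numbers from the titles. The BxPC3 P2-α8 titles pair α8 with P1, and the genotype label was used. The 14 input libraries were not used here. Nothing in the labels says that replicates came from separate cultures, so p-values measure the spread between these libraries, which may be technical. Same-numbered libraries did not deviate together (correlations of −0.0694 to 0.0674 over regions), so no block was used.

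Member sites were merged regions with a summit within 50 kb of a member. A site was group-specific when in every list of one side and none of the other. Peak numbers per gene were compared by two-sided exact permutation tests over all protein-coding genes with a peak in the comparison, with Benjamini-Hochberg adjustment and a threshold of 0.05. Code ran in Python 3.11.15 with numpy 2.4.6, pandas 2.3.3 and scipy 1.17.1. The number of merged regions was checked against bedtools 2.31.1 on the deposited peaks, and the permutation test was checked on simulated data. Named sites were, for each gene, the site in most pan-HNF4α lists; the sites in all 14; and, per comparison and direction, the 2 group-specific sites of highest mean percentile; others named were chosen after their values were seen. Like genes were those of highest Spearman rho. Exact 95% intervals cover counting error only. The members and lists were chosen with earlier results of these data known.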

Additional observations from a re-analysis of the deposited data

Results flagged for a closer look

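The number of peaks at KLF4 and OVOL1 differed by isoform in opposite directions in the 2 induced lines, with every list of one isoform above both lists of the other in each line. At KLF4 the mean of P1-α2 minus P2-α8 was −1.5 peaks in Panc10.05 and 1.5 in BxPC3, so the difference between the lines was −3.00. At OVOL1 the means were −3.00 and 4.00, so the difference was −7.00. No p-value is given for the difference itself, since the order that chose these 2 of 7 genes already fixes the result of relabelling the isoforms. The same opposite order was seen in 19.2% of protein-coding genes with a peak in both comparisons. With the lists of each line cut to equal length, the isoforms overlapped or were equal at both genes in both lines, with differences of 0.5 and 0 at KLF4 and −1 and 0 at OVOL1. The Panc10.05 doses also differed by isoform, and their part was not tested.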

How the results depend on the processing

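The lists differ in length and threshold and have no known read depth, and 2 lists against 2 cannot reach a p under 0.333, so site counts describe these lists. Counts are given as first group, then second group. The share of all regions called was not computed under the other settings or with a list left out, so these counts have no such share beside them. With lists cut to equal length, group-specific sites were 2 and 2 for the Panc10.05 isoforms, 0 and 1 for the BxPC3 isoforms, 1 and 2 for Panc10.05 against BxPC3, 0 and 0 for each guide against sgNC, 0 and 1 for sgP1 against sgP2, 0 and 0 for the P1 antibody, and 5 and 0 for AsPC1 against the induced lines. The difference in mean member peaks went from −9 to 0 for the Panc10.05 isoforms, from 8.5 to 0 for Panc10.05 against BxPC3, from −0.5 to −1 for sgP1 against sgP2 and from 6 to 0 for the P1 antibody. It changed sign for the BxPC3 isoforms (19 to −3.5), sgP1 against sgNC (−5 to 0.5), sgP2 against sgNC (−4.5 to 1) and AsPC1 against the induced lines (−8.42 to 5.79). Within 10 kb, sites were 1 and 3 for the Panc10.05 isoforms, 5 and 0 for the BxPC3 isoforms (mean difference 8.5), 2 and 0 between these lines, 0 and 0 for either guide, and 1 and 1 for AsPC1 against the induced lines. With a −log10 q of at least 20, they were 1 and 2 for Panc10.05 against BxPC3, 1 and 0 for the P1 antibody (mean difference 1.5) and 1 and 2 for AsPC1 against the induced lines, and the mean difference of sgP1 against sgP2 was −3. With summits within 100 bp, they were 3 and 7 for the Panc10.05 isoforms, 11 and 1 for the BxPC3 isoforms and 1 and 2 between these lines. With a reciprocal overlap of 50%, the share of member P1-antibody peaks on pan-HNF4α peaks was 50%. The cause of these changes beyond the fewer peaks counted was not tested.

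Leaving out 1 list at a time, group-specific sites ranged from 1 to 2 and 5 to 12 for the Panc10.05 isoforms, 13 to 20 and 0 to 1 for the BxPC3 isoforms, 2 to 7 and 2 to 3 between these lines, 0 to 1 and 2 to 9 for sgP1 against sgNC, 0 to 1 and 1 to 9 for sgP2 against sgNC, 0 to 2 and 0 to 2 for sgP1 against sgP2, 5 to 6 and 0 for the P1 antibody, and 3 to 4 and 2 to 3 for AsPC1 against the induced lines. A list left out loosens the rule for a site, so these site counts could only stay or rise and cannot show that a call is stable. The mean difference for the P1 antibody ranged from 5 to 7. The KLF4 difference between AsPC1 and the induced lines ranged from −3.98 to −3.26 and missed the threshold without any 1 of 5 AsPC1 lists (each but sgNC replicate 1), with exact permutation adjusted p-values of 0.0516 to 0.0527. GRHL2 ranged from −3.41 to −2.55 and missed it without any 1 of the 6 AsPC1 lists (adjusted p 0.0565 to 0.0801, exact permutation). OVOL2 ranged from −3.41 to −2.55 and passed without Panc10.05 P1-α2 replicate 1 or either BxPC3 P2-α8 list. KLF5 (0.875 to 1.17) and EHF (3.10 to 3.55) passed in all 14 cases. With an AsPC1 list left out, 1466 to 2139 genes passed in all, against 3140 with every list.

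These settings for genes between AsPC1 and the induced lines were chosen after seeing the data, except the −log10 q of 8. At equal length, ELF3 turned to 1.54, GRHL2 to 0.292 and OVOL2 to 0.375, and 3159 genes were higher in AsPC1 and 1522 in the induced lines, against 452 and 2688 as deposited. Within 10 kb, KLF4 (−0.708), EHF (0.417) and GRHL2 (−2.33) no longer passed, and 1541 genes were higher in the induced lines. With a −log10 q of at least 8, OVOL2 passed (−2.96), with 212 and 4949 genes. At 20, EHF turned to −0.0417, GRHL2 missed (−1.67), OVOL1 (−2.79) and OVOL2 (−3.25) passed, with 97 and 6760 genes. With only the sgNC lists of AsPC1, KLF4 differed by −3.25, KLF5 by 1.38, EHF by 4 and GRHL2 by −2.63. No gene passed there, 0 and 0, since 45 labellings allow no p below 0.0222 before adjustment; 1702 genes had an unadjusted p under 0.05 by the exact permutation test. For the isoforms, also added after seeing the data, equal length turned KLF4 to 0.5, ELF3 to 2 and GRHL2 to 1 in Panc10.05, and EHF to −1, GRHL2 to −1 and OVOL2 to −1.5 in BxPC3. Between Panc10.05 and BxPC3, where no member passed, GRHL2 turned to −0.75 and OVOL1 to −0.25 at equal length, OVOL2 to 1.25 within 10 kb, OVOL2 to 0.167 without Panc10.05 P1-α2 replicate 1 and to 0.0833 without BxPC3 P1-α2 replicate 1, and GRHL2 to −0.167 without BxPC3 P2-α8 replicate 2. Over single lists left out, OVOL2 ranged from −1.58 to 0.167 and GRHL2 from −0.167 to 1.83.

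A replicate block changed no call in 52 gene tests, but only those of AsPC1 against the induced lines could change. In the other comparisons no gene passed without it. With it, the smallest possible p of the exact permutation test there was 0.0556 or 0.5. Between AsPC1 and the induced lines, the block moved the genes called higher from 452 to 389 in AsPC1 and from 2688 to 2173 in the induced lines. With it, the exact permutation test gave a difference of 3.33 for EHF (adjusted p = 0.0268), 1.04 for KLF5 (0.0343), −3.58 for KLF4 (0.0381) and −2.96 for GRHL2 (0.0480) between AsPC1 and the induced lines. The numbers do not pair the libraries.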
